A study of Mus musculus with 9 samples.

Results

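The comparison set gastric corpus glands from mice carrying Atp4bCre and a Rosa26NICD transgene (the group labelled Ctrl, 3 libraries) against glands from wild-type mice (WT, 3 libraries), which are 6 of the 9 RNA-seq libraries in the study. The other 3 libraries (Arid1a_Het) came from mice that carried the same 2 transgenes and 1 floxed Arid1a allele (Arid1aflox/+). Members were all genes with a level of at least 1 FPKM in at least 3 of the 9 libraries, which were 11209 of the 18423 genes listed. FPKM counts sequenced fragments per length of transcript and per total of mapped fragments in the library. The labels give neither the ages of the mice nor which of the Notch proteins the intracellular domain came from, and no group carried the Cre transgene alone, so Cre and NICD cannot be told apart. The material was epithelium loosened in EDTA and scraped off the corpus, where tumours lay in the transgenic stomachs, or off the corresponding normal region. Whether each library stands for its own mouse is not stated, and the p-values may thus reflect technical spread alone.

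Notch is a receptor that is cut when a neighbouring cell presents a ligand. The freed intracellular domain (NICD) enters the nucleus, where it joins the DNA-binding protein Rbpj and a Mastermind-like coactivator and turns on genes such as Hes1 and Nrarp. Atp4b encodes the beta subunit of the proton pump of parietal cells, the acid-secreting cells of the corpus, and its promoter drives the Cre that switches on NICD. Parietal cells hold many mitochondria and burn fatty acids to supply the pump. Loss of parietal cells and inflammation of the corpus are known to be followed by metaplasia, a replacement of gland cells by cells with mucous, ductal or intestinal features.

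Whole reads recovered from the FPKM values numbered 22651582 to 29478481 per library. In a principal component analysis the first component held 54.9% of the variance and placed all 3 Ctrl libraries between -44.1 and -29.0 and the WT libraries between 28.0 and 68.5, with WT 2 farthest out. A chief cell and a pit cell marker of the labelled tissue were present in every library of both groups, while acid secretion genes of parietal cells are described below. The chief cell zymogen Pgc lay between 5474 and 76560 FPKM. The pit mucin Muc5ac was at 906 to 1542 FPKM in WT and 141 to 574 FPKM in Ctrl. It was called lower in Ctrl (limma adjusted p = 0.0484), a call lost in 13 of 19 alternative analyses. Pancreatic Ctrb1 stood at 1084 FPKM in Ctrl 1 and 375 FPKM in Arid1a_Het 3 and at 1.70 FPKM or less in the other libraries. The summed FPKM of the pancreas acinar list did not follow it. That sum was 3391, 20730 and 17720 in WT 1 to 3 and 6288, 3044 and 1030 in Ctrl 1 to 3. The mean log2 level of the 12 tested list members did follow Ctrb1. Relative to the WT mean it was 2.52 in Ctrl 1 and 1.55 in Arid1a_Het 3, and -1.43 to 0.53 in the other libraries. The summed FPKM of leukocyte markers was 23.7 to 131 in WT and 127 to 198 in Ctrl. Their mean log2 level relative to the WT mean did not overlap, at -0.53 to 0.61 in WT and 0.93 to 1.54 in Ctrl. Of 14 tested markers 4 rose (Itgax, Cd14, Csf3r and Coro1a), which is 28.57%, beside 7.01% of all tested genes. When Ctrl 2 or Ctrl 3 was dropped none passed; 1 did when WT 2 or WT 3 was dropped, and 2 when Ctrl 1 or WT 1 was. Summed stromal, endothelial and muscle markers were 20.8 to 127 in WT and 20.1 to 31.9 in Ctrl, with 0 of 11 called by limma or voom and 1 lower at an unadjusted p under 0.05.

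Short motifs were searched in the 250 bases before each gene's RefSeq start (GRCm38.p6), with a promoter listed for 8726 of the 11209 tested genes. A match is a description of letters, not of binding. The 3 neutrophil-attracting chemokines Cxcl1, Cxcl2 and Cxcl3 lie on chromosome 5 between 90786103 and 90905938. They are shown because each rose in Ctrl and each carries the same 11 bases, written in capitals. The 11 bases match the NF-kB pattern GGGANNTTCC on both strands.

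Cxcl1: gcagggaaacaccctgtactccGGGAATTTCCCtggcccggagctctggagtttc
Cxcl2: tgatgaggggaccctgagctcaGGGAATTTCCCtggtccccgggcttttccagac
Cxcl3: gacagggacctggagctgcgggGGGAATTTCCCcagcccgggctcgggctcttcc

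These stretches were chr5:90891152-90891206, chr5:90903780-90903834 and chr5:90786006-90786060, all on the plus strand, and the first match began 71, 97 and 73 bases before the start of the gene. The pattern stood in 3 of the 9 chemokine genes with a listed promoter, in 15 of 576 genes that rose (2.60%), in 3 of 270 genes that fell (1.11%) and in 1.36% of all 27025 promoters. The 3 genes are close relatives and share ancestry as well as letters. Bpifb1 and Pglyrp1, described below, also held 1 match each and are not shown; the RefSeq start used for Pglyrp1 lies inside the gene as GENCODE places it. The core Rbpj motif TGGGAA, on either strand, was common, in 24.1% of all promoters, 31.1% of those of genes that rose and 23.0% of those of genes that fell. Of the Notch lists it stood in none of the 8 receptor and ligand promoters and in 1 of 5 effector promoters. It stood in 8 of 20 promoters of Notch processing and nuclear complex genes (40%), Maml2 among them. Only 5 of the 10 tested effectors had a listed promoter. These letters were not tested for a difference between sets.

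Of the 11209 genes, 786 rose and 341 fell in Ctrl (limma, Benjamini-Hochberg adjusted p under 0.05), which is 7.01% and 3.04% of those tested and 10.1% together. For every one of these 1127 genes the Ctrl and WT libraries did not overlap. A lack of overlap was common, though. Called or not, 3757 of the 11209 genes lay higher in every Ctrl library than in any WT library, and 1140 lay lower. The ratio of mean levels was at least 4 for 374 of the genes that rose and 110 of those that fell. The median log2 fold change of all tested genes was 0.24, and medians of gene lists below are given relative to it. The share of calls that were increases was 69.7%, against 50.9% after median-ratio scaling, 61.9% after scaling to totals without the 50 highest genes and 44.7% after quantile normalization. Counts rested on each Ctrl library and on WT 2 and WT 3, but changed little without WT 1 (695 rises and 349 falls). Rises and falls numbered 309 and 91 without Ctrl 1, 293 and 107 without Ctrl 2, 217 and 43 without Ctrl 3, 305 and 95 without WT 2, and 326 and 88 without WT 3. A fit with the replicate number as a block called 1804 and 669, including all 1127. Of the genes that passed, 181 that rose and 32 that fell also passed in every one of 19 alternative analyses that tested them, and the text turns mainly to these. They were picked out after their values were seen. The 25 largest increases ran from 4.38 to 9.27 on the log2 scale and 24 of them held in every alternative; the 25 largest decreases ran from -4.33 to -2.58, of which 4 held. Fold changes refer to log2(FPKM + 1); for genes near 1 FPKM or below, adding 1 makes them smaller than the ratio of levels.

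**Figure D1:**
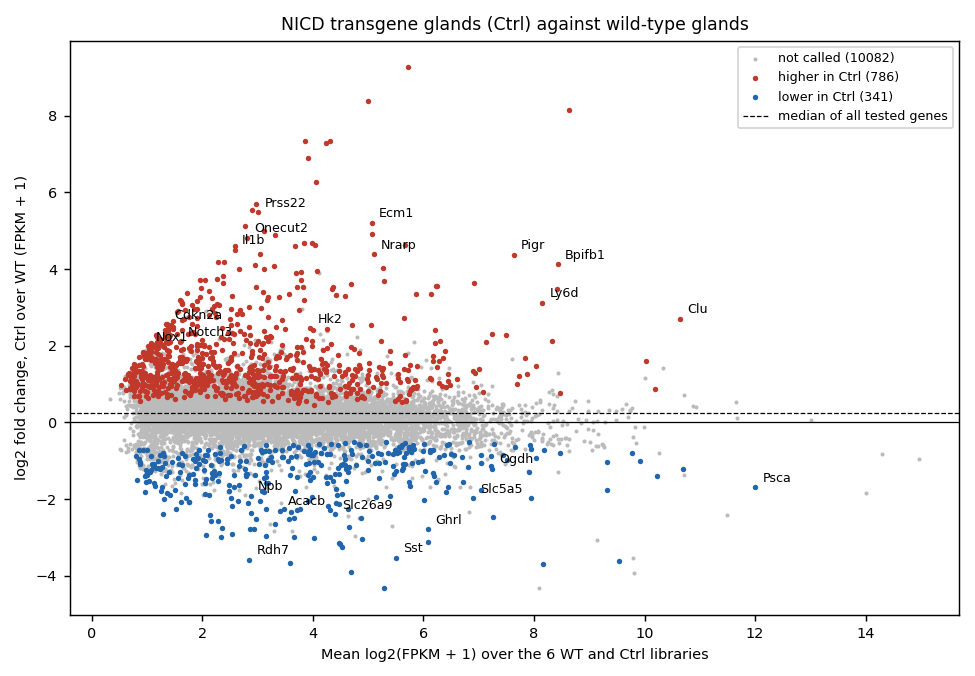
Each point is 1 of 11209 tested genes, placed by its mean log2(FPKM + 1) over the 6 WT and Ctrl libraries (horizontal) and its log2 fold change of Ctrl over WT (vertical). Red points are the 786 genes that rose, blue points the 341 that fell, and the dashed line is the median of all genes at 0.24.

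The Notch receptors Notch1 and Notch3 and the ligands Jag1 and Dll1 rose in Ctrl. They were 4 of 8 tested receptors and ligands (50%, beside 7.01% of all tested genes), with none lower. Notch3, on chromosome 17 at 32120820 to 32166852, was at 0.653, 0.444 and 0.316 FPKM in WT and at 5.30, 5.88 and 4.84 FPKM in Ctrl (log2 fold change 2.11, SE 0.26, limma adjusted p = 0.00308). Notch1, on chromosome 2 at 26457903 to 26516663, was at 3.59, 1.83 and 2.13 FPKM in WT and 7.10, 8.37 and 8.05 FPKM in Ctrl (1.36, SE 0.20, adjusted p = 0.00568). The groups were apart for both receptors, and reads of Notch1 and of a transgene made from it could not be separated. Jag1 was at 4.73 to 6.34 FPKM in WT and 16.7 to 25.4 FPKM in Ctrl (adjusted p = 0.00647). Dll1 was at 0.143 to 0.216 FPKM in WT and 2.23 to 4.999 FPKM in Ctrl (adjusted p = 0.0223, and 0.0611, 0.091, 0.0666 and 0.0645 without Ctrl 1, Ctrl 3, WT 2 or WT 3). The ligand Jag2 went the other way in level, with 2.27 to 4.65 FPKM in WT and 0.928 to 2.06 FPKM in Ctrl, and did not pass (adjusted p = 0.0598). It did pass as lower with the replicate block (0.0124), after median-ratio scaling (0.0232) or quantile normalization (0.0162), with totals that omit the 50 highest genes (0.0412) and without Arid1a_Het 2 (0.0457), where the count of falls was 1.

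Of 10 tested Notch effectors 6 rose (Nrarp, Hes1, Myc, Ccnd1, Sox9 and Bcl6), 60% beside 7.01% of all tested genes, and none fell. The list median was 0.78 above that of all genes. Nrarp, a feedback inhibitor that binds the NICD complex, was at 9.05, 3.80 and 7.68 FPKM in WT and 113, 194 and 171 FPKM in Ctrl, and at 263, 161 and 184 FPKM in Arid1a_Het. Hes1, the repressor best known as a Notch target, was at 45.1, 53.02 and 64.9 FPKM in WT and 85.6, 113 and 137 FPKM in Ctrl. Its log2 fold change was 1.02 (SE 0.20, adjusted p = 0.0167), beside 4.38 (SE 0.32, adjusted p = 0.000208) for Nrarp. The Hes1 call was lost without Ctrl 2, Ctrl 3 or WT 2 (adjusted p = 0.0546, 0.0664 and 0.0521) and after median-ratio scaling (0.0736). The count of effectors was 1 without Ctrl 2, 2 without Ctrl 1, Ctrl 3 or WT 2, and 3 after median-ratio scaling. In contrast to receptors and effectors, only Maml2 rose among 25 genes of cleavage, glycosylation and the nuclear complex (4%). Maml2 was at 0.295 to 0.452 FPKM in WT and 1.92 to 2.42 FPKM in Ctrl (adjusted p = 0.0162, and 0.0567, 0.0700 and 0.0506 without Ctrl 1, Ctrl 3 or WT 3). The list median was 0.01 above that of all genes.

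**Figure D2:**
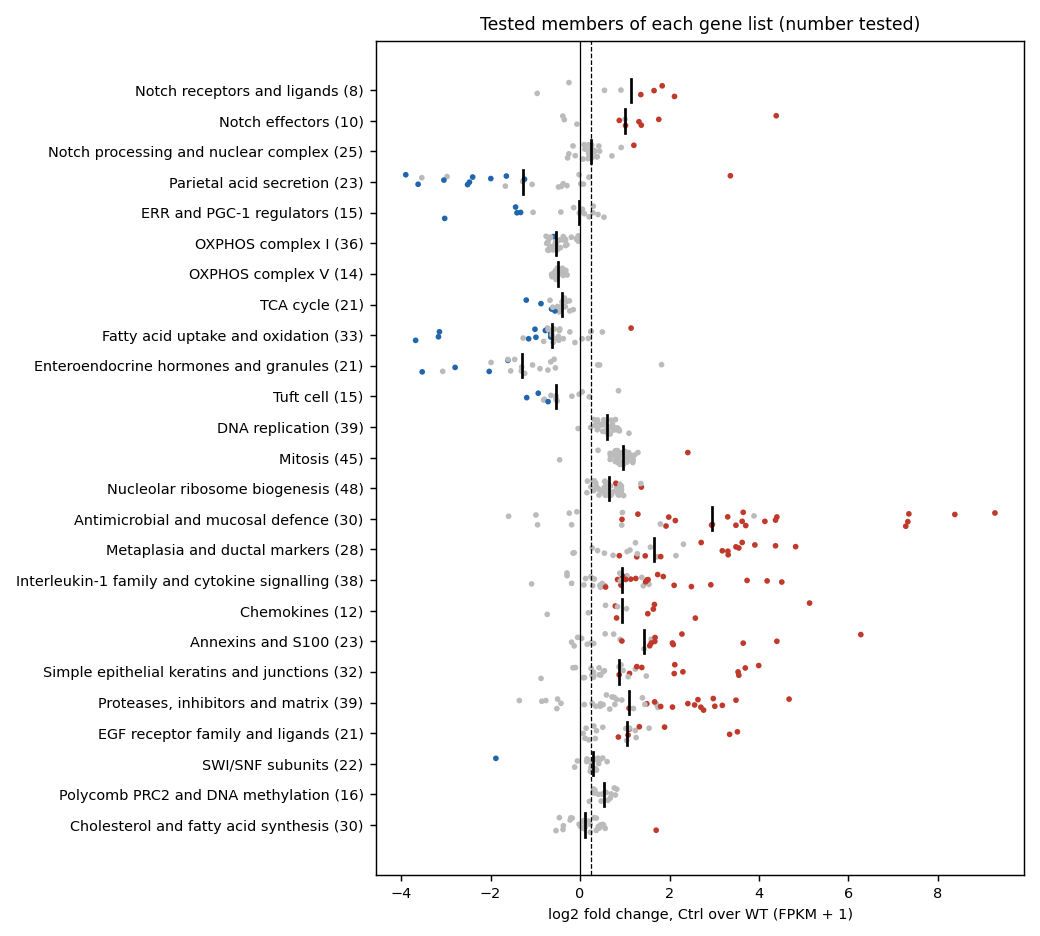
Each point is a tested gene of the list named on the vertical axis, placed by its log2 fold change of Ctrl over WT, with red for genes that rose, blue for genes that fell, grey for those not called, and black bars for list medians. Antimicrobial genes spread farthest to the right, parietal and endocrine genes lie mostly left of the dashed median of all genes at 0.24, and all 36 complex I genes lie left of it.

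Among the largest increases were secreted and cell-surface proteins of barrier epithelia. Prss22, a serine protease of airway epithelium on chromosome 17 at 23993534 to 23998100, was at 0.228, 0.172 and 0.195 FPKM in WT and 36.3, 60.4 and 65.4 FPKM in Ctrl. Ecm1, an extracellular matrix glycoprotein gene on chromosome 3 at 95734147 to 95739569, was at 5.82, 7.44 and 1.88 FPKM in WT and 153, 232 and 231 FPKM in Ctrl. Tgm2, which cross-links proteins, was at 4.98, 9.55 and 2.65 FPKM in WT and 135, 220 and 208 FPKM in Ctrl. For each of these the lowest Ctrl library lay far above the highest WT library. Their log2 fold changes were 5.48 (SE 0.47), 5.21 (SE 0.53) and 4.91 (SE 0.47), with limma adjusted p of 0.000445, 0.0013 and 0.00102. The calcium-activated chloride channel regulator family member Clca3a2 had one of the smallest errors, at 0.119 to 0.292 FPKM in WT and 23.6 to 35.9 FPKM in Ctrl (4.59, SE 0.27, adjusted p = 7.32e-05). The fatty acid hydroxylase gene Cyp4f15 was likewise tight, at 1 to 1.33 FPKM in WT and 9.72 to 12.7 FPKM in Ctrl (2.47, SE 0.15, adjusted p = 7.32e-05).

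Sftpd, a collectin that binds microbial sugars, was at 1.88 to 2.46 FPKM in WT and 75.9 to 80.4 FPKM in Ctrl. Lrg1, a secreted leucine-rich glycoprotein induced in inflammation, was at 1.91 to 2.75 FPKM in WT and 69.9 to 89.3 FPKM in Ctrl. In Arid1a_Het glands Lrg1 was at 14.8, 5.52 and 40.7 FPKM, below every Ctrl library and above every WT library. Stom, a membrane scaffold protein, was at 1.68 to 3.92 FPKM in WT and 41.1 to 56.8 FPKM in Ctrl. F3, tissue factor, which starts blood clotting, was at 3.03 to 3.67 FPKM in WT and 51.2 to 96.2 FPKM in Ctrl. The pantetheinase gene Vnn1 was at 0.891 to 2.20 FPKM in WT and 34.0 to 44.2 FPKM in Ctrl. For each of these 5 genes the 2 groups were far apart, and their adjusted p lay between 0.000361 and 0.00339. A pair of transcription factor genes rose from near 0. Onecut2, a factor of liver and biliary development, was at 0.617, 0.238 and 0.125 FPKM in WT and 30.9, 30.2 and 50.01 FPKM in Ctrl (log2 fold change 4.82, SE 0.47, adjusted p = 0.00111). Pax9, a factor of foregut and oral epithelium, was at 0.0085 to 0.0255 FPKM in WT and 7.35 to 13.99 FPKM in Ctrl (3.38, SE 0.49, adjusted p = 0.00547).

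Of 23 tested acid secretion genes 9 fell (39.13%, beside 3.04% of all tested genes) and 1 rose (4.348%, beside 7.01%). The list median was 1.52 below that of all genes. Slc26a9, a chloride channel of gastric epithelium, was at 29.3, 78.6 and 46.0 FPKM in WT and 7.24, 7.59 and 9.89 FPKM in Ctrl, with no overlap (log2 fold change -2.40, SE 0.40, adjusted p = 0.0101). Its call held in every alternative. The histamine receptor Hrh2 was at 12.98 to 25.4 FPKM in WT and 1.30 to 4.28 FPKM in Ctrl (adjusted p = 0.0177), and was above 0.05 without Ctrl 1 (0.0611), Ctrl 3 (0.0754), WT 2 (0.0643) or WT 3 (0.0533). Kcne3, a potassium channel subunit of secretory epithelia, was the exception, at 40.4, 5.08 and 22.9 FPKM in WT and 200, 207 and 155 FPKM in Ctrl (3.36, SE 0.67, adjusted p = 0.0186). Without Ctrl 1, Ctrl 2 or Ctrl 3 its adjusted p was 0.0575, 0.0569 and 0.0684, and with each of these omissions the count of rises was 0. The count of falls was 1 without Ctrl 1, Ctrl 3, WT 2 or WT 3, 2 with no filter, 4 without Ctrl 2 and 5 without Ctrl 1 and Arid1a_Het 3. In these bulk libraries fewer parietal cells and less of a transcript per cell cannot be told apart.

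Mitochondrial gene lists differed in their share of falls, which was 3.04% over all tested genes. Ogdh, a subunit of the 2-oxoglutarate dehydrogenase of the TCA cycle, on chromosome 11 at 6291633 to 6356642, was at 227, 257 and 202 FPKM in WT and 108, 94.0 and 93.8 FPKM in Ctrl (log2 fold change -1.20, SE 0.16, adjusted p = 0.00456). Of 21 TCA cycle genes tested 4 fell (19.05%), Cs and Fh1 among them. Citrate synthase Cs was at 238 to 257 FPKM in WT and 148 to 170 FPKM in Ctrl (-0.64, SE 0.13, adjusted p = 0.019). Cs and Fh1 lost their calls without any one of Ctrl 1, Ctrl 2, Ctrl 3, WT 2 or WT 3 (adjusted p between 0.0516 and 0.111), and Fh1 also without Arid1a_Het 1 (0.0525). The TCA count was 1 without Ctrl 1, Ctrl 3, WT 2 or WT 3, 2 without Ctrl 2, 8 with the replicate block or quantile normalization, 10 after median-ratio scaling and 11 with totals that omit the 50 highest genes. All 21 TCA genes lay below the median of all genes.

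Nearly all respiratory chain genes missed the threshold, while 3.04% of all tested genes fell. Of 36 complex I genes 1 fell, of 14 genes of complexes II and III none, of 13 of complex IV 1, and of 14 of complex V none (limma), while 17, 9, 6 and 11 were lower at an unadjusted p under 0.05 and voom called 0, 0, 1 and 0. However, every one of these 77 genes lay below the median of all genes. The list medians stood 0.76, 0.76, 0.81 and 0.73 below it. WT 2 stood apart from the other WT libraries: the mean complex I level relative to the WT mean was -0.30, 0.39 and -0.10 in WT 1, 2 and 3 and -0.46, -0.29 and -0.70 in Ctrl 1, 2 and 3, so that WT 1 and Ctrl 2 were nearly level. With the replicate block 17, 7, 4 and 7 of them fell. Sdhb, a subunit of succinate dehydrogenase, was at 91.0, 132 and 101 FPKM in WT and 68.1, 75.7 and 53.3 FPKM in Ctrl (adjusted p = 0.06, and 0.0133 with the block). Atp5a1, the catalytic-core alpha subunit of ATP synthase, was at 620 to 857 FPKM in WT and 383 to 490 FPKM in Ctrl (adjusted p = 0.066, and 0.0291 with the block). The calls of Ndufa10 and Ndufa4, the single genes of complexes I and IV that fell (adjusted p = 0.0497 and 0.0399), were lost in 13 and 8 of the 19 alternatives, among them each omission of Ctrl 1, Ctrl 2, Ctrl 3, WT 2 or WT 3, where both counts were 0.

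Ehhadh and Acacb, genes of fatty acid metabolism outside the mitochondrial list, were among the steadiest decreases. Ehhadh, an enzyme of peroxisomal beta-oxidation, on chromosome 16 at 21761287 to 21787807, was at 39.6, 36.9 and 38.1 FPKM in WT, 16.2, 17.7 and 11.4 FPKM in Ctrl, and 25.9, 29.7 and 23.0 FPKM in Arid1a_Het. All 3 Arid1a_Het libraries lay between the other groups. Acacb, whose product makes the malonyl-CoA that holds back fatty acid entry into mitochondria, was at 26.9, 23.9 and 17.9 FPKM in WT and 4.54, 4.57 and 2.54 FPKM in Ctrl. The log2 fold changes of Ehhadh and Acacb were -1.31 (SE 0.18) and -2.31 (SE 0.30), with adjusted p of 0.00431 and 0.00358. Both genes were named after their values were seen.

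Of 33 genes of fatty acid uptake and mitochondrial oxidation, 10 fell (30.3%, beside 3.04% of all tested genes) and 1, Fabp5, rose. Cpt1a, which loads fatty acids for entry into mitochondria, was at 82.7 to 94.8 FPKM in WT and 43.2 to 58.5 FPKM in Ctrl (adjusted p = 0.022). The trifunctional enzyme subunit Hadha was at 57.4 to 64.3 FPKM in WT and 34.1 to 39.7 FPKM in Ctrl (adjusted p = 0.018). The carrier Ucp2 was at 242 to 275 FPKM in WT and 100 to 153 FPKM in Ctrl (adjusted p = 0.0171). The number that fell was 0 without Ctrl 3, 1 without WT 3, 2 without Ctrl 2, 3 without WT 2 and 4 without Ctrl 1, and Fabp5 was not called without Ctrl 2, Ctrl 3, WT 2 or WT 3 (0.0867 to 0.118), with no filter (0.0615), after median-ratio scaling (0.0964) or with totals that omit the 50 highest genes (0.0557). The adjusted p of Cpt1a, Hadha and Ucp2 was 0.076, 0.0677 and 0.0566 without Ctrl 3 and 0.0557, 0.0652 and 0.057 without WT 3. Cpt1a also missed without Ctrl 2 (0.0548) or WT 2 (0.0667), and Hadha without Ctrl 1 (0.0559) or Ctrl 2 (0.0512). With the replicate block 19 of the list fell. The nuclear receptor genes Esrrg, Esrrb and Ppara and the regulator Perm1, which are known to drive oxidative genes, fell as well, 4 of 15 in their list (26.67%). Ppara, the fatty acid sensor, was at 3.48, 5.76 and 4.48 FPKM in WT and 1.51, 1.11 and 0.569 FPKM in Ctrl (-1.44, SE 0.31, adjusted p = 0.024). Esrrg was at 23.01, 76.2 and 53.1 FPKM in WT and 2.26, 8.27 and 5.16 FPKM in Ctrl (-3.02, SE 0.71, adjusted p = 0.0297). This list's count was 0 without Ctrl 2, Ctrl 3, WT 2 or WT 3, 1 without Ctrl 1, with no filter or at a minimum of 5 FPKM, and 2 without Ctrl 1 and Arid1a_Het 3. The adjusted p of Ppara and Esrrg in the fits that lost them lay between 0.0542 and 0.106. Esrra, the relative of Esrrg, stood at 58.5 to 68.9 FPKM in WT and 55.8 to 57.0 FPKM in Ctrl.

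**Figure D3:**
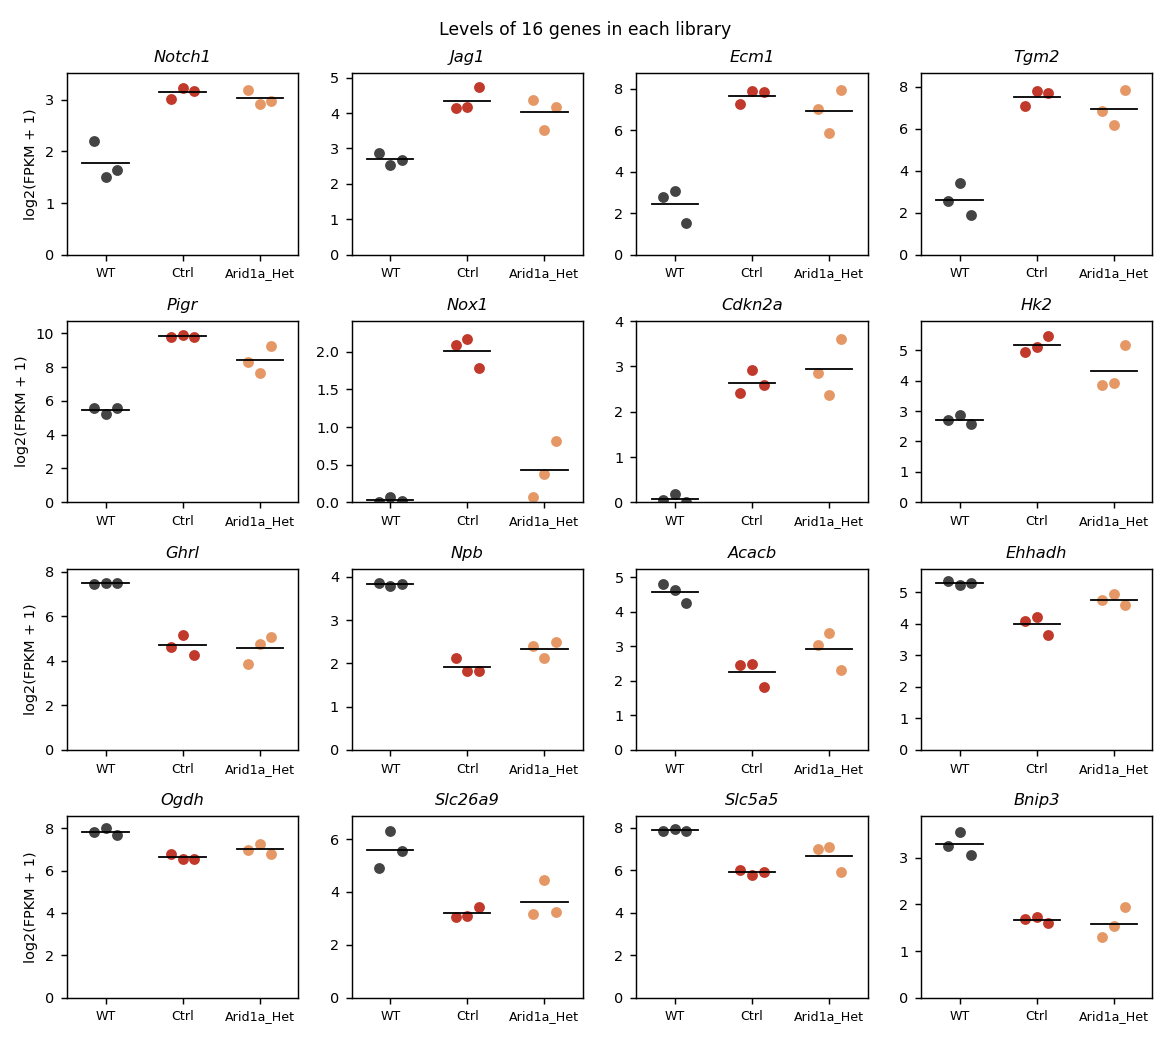
Points are single libraries and bars are group means of log2(FPKM + 1), which starts at 0 on each vertical axis, for WT, Ctrl and Arid1a_Het (3 libraries each). In all 16 genes the WT and Ctrl points do not overlap; Ehhadh and Ogdh in Arid1a_Het lie between the 2 groups, while Bnip3 in Arid1a_Het lies near Ctrl.

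Other steady decreases were of metabolic and transport genes. Slc5a5, the iodide transporter known in thyroid and gastric epithelium, was at 230, 245 and 230 FPKM in WT and 63.3, 54.0 and 59.7 FPKM in Ctrl (log2 fold change -1.98, SE 0.28, adjusted p = 0.00479). Its Arid1a_Het levels were split, with 128 and 134 FPKM above all Ctrl libraries and 59.3 FPKM within them. The deiodinase Dio1, which handles thyroid hormone, was at 3.67 to 6.02 FPKM in WT and 0.432 to 1.86 FPKM in Ctrl (adjusted p = 0.0134). The carboxylesterases Ces2a and Ces2c were at 12.2 to 16.3 and 75.2 to 103 FPKM in WT and at 3.88 to 5.44 and 25.2 to 38.2 FPKM in Ctrl, though reads of such near relatives may be split between them. Hsd17b11, a lipid-droplet dehydrogenase, was at 155 to 183 FPKM in WT and 65.2 to 81.7 FPKM in Ctrl (adjusted p = 0.00431). The xenobiotic cytochrome Cyp2s1 was at 115 to 207 FPKM in WT and 42.2 to 52.1 FPKM in Ctrl (adjusted p = 0.0041).

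Of 21 tested endocrine hormone and granule genes 4 fell (Sst, Ghrl, Chga and Syp), 19.05% beside 3.04% of all tested genes. None rose, and the median was 1.54 below that of all genes. The summed FPKM of the list overlapped between the groups, at 1142 to 4217 in WT and 119 to 1600 in Ctrl. Ghrl, ghrelin, the hunger hormone of X/A-like cells, was at 175, 178 and 179 FPKM in WT and 23.6, 35.1 and 18.3 FPKM in Ctrl (log2 fold change -2.79, SE 0.31, adjusted p = 0.00195). The neuropeptide gene Npb was as even within WT, at 13.4, 12.9 and 13.3 FPKM, and was at 3.34, 2.56 and 2.53 FPKM in Ctrl (-1.91, SE 0.16, adjusted p = 0.000387). The count was 2 without Ctrl 3, when Syp and Chga were at adjusted p of 0.0707 and 0.138. Chga also missed without Ctrl 1, Ctrl 2, WT 1, WT 2 or WT 3 (0.0569 to 0.125). Among 15 genes of tuft cells, the chemosensory cells of the epithelium, the G protein subunit Gng13 was the one that fell in every alternative that tested it, from 1.78 to 2.75 FPKM in WT to 0.192 to 0.745 FPKM in Ctrl (adjusted p = 0.0113). Dclk1 and Ltc4s also fell, a count of 3 (20%). The count was 1 without Arid1a_Het 1 or any 1 of the 6 libraries compared, and 5 after quantile normalization.

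Lists of growth and cell division genes differed in their share of calls. Cdk6, a G1 kinase, was at 1.995, 1.18 and 1.99 FPKM in WT and 5.83, 6.19 and 8.54 FPKM in Ctrl (log2 fold change 1.53, SE 0.25, adjusted p = 0.0091). Cdkn2a, which encodes the inhibitors p16 and p19Arf, was at 0.0367, 0.130 and 0 FPKM in WT, 4.29, 6.54 and 4.99 FPKM in Ctrl, and 6.19, 4.13 and 11.1 FPKM in Arid1a_Het (2.56, SE 0.29, adjusted p = 0.00203). A kinase that opens the cycle and an inhibitor that closes it thus both rose. Myc, at 5.53 to 11.8 FPKM in WT and 22.8 to 25.6 FPKM in Ctrl (1.37, SE 0.28, adjusted p = 0.019), and cyclin D1 Ccnd1, at 17.96 to 32.7 and 80.2 to 109 FPKM (1.76, SE 0.36, adjusted p = 0.0191), rose too. They did not pass without Ctrl 1 (0.0552 and 0.0568), Ctrl 2 (0.0564 and 0.0615) or Ctrl 3 (0.0764 and 0.0664), nor did Ccnd1 without WT 2 (0.0644) or Myc without Ctrl 1 and Arid1a_Het 3 (0.0521). Of 26 genes of this list 5 rose (19.23%, beside 7.01% of all tested genes) and 1, the inhibitor Cdkn1c, fell (3.846%, beside 3.04%). The count of rises was 2 without Ctrl 1, Ctrl 2 or Ctrl 3, 3 without WT 2 and 9 with the replicate block, and that of falls 0 without Ctrl 2, Ctrl 3 or WT 3.

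No DNA replication gene of 39 passed in limma or voom (7 were higher at an unadjusted p under 0.05). Of 45 mitosis genes 1 rose (Kif23, 2.222%) and of 48 nucleolar genes 2 rose (Ppan and Mrto4, 4.167%), beside 7.01% of all tested genes. The 3 list medians were 0.38, 0.73 and 0.41 above that of all genes. In the same order 38, 44 and 46 genes lay above the median of all genes. The mean mitosis level relative to the WT mean was 0.98, 0.97 and 0.89 on the log2 scale in Ctrl 1, 2 and 3, and 0.83, -1.04 and 0.21 in WT 1, 2 and 3. WT 1 was thus close to the Ctrl libraries and WT 2 far below. With WT 1 left out 16 mitosis genes rose, and with any one of Ctrl 1, Ctrl 2, Ctrl 3, WT 2 or WT 3 left out none did. The nucleolar count was 0 without Ctrl 1, Ctrl 2, Ctrl 3, WT 1 or WT 2, 1 without WT 3 or Arid1a_Het 1 and 7 without Arid1a_Het 2. The replicate block called 4, 11 and 22 rises in the 3 lists. Of 25 p53 targets 5 rose (20%). Phlda3, an inhibitor of Akt, was at 0.828 to 1.88 FPKM in WT and 13.9 to 21.9 FPKM in Ctrl (2.94, SE 0.48, adjusted p = 0.00872). When Ctrl 1, Ctrl 3 or WT 2 was dropped 1 target passed, 2 did when Ctrl 2 or WT 3 was, and 3 with no filter.

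Glucose use and hypoxia genes did not move one way. Hk2, the hexokinase of tumours and muscle, was at 5.54, 6.25 and 5.005 FPKM in WT, 30.1, 33.4 and 43.8 FPKM in Ctrl, and 13.4, 14.1 and 35.3 FPKM in Arid1a_Het (log2 fold change 2.46, SE 0.33, adjusted p = 0.0041). Bnip3, a mitophagy receptor that is a textbook hypoxia gene, went down, from 8.61, 10.8 and 7.30 FPKM in WT to 2.22, 2.31 and 2.03 FPKM in Ctrl (-1.62, SE 0.21, adjusted p = 0.0032). The lipid droplet gene Hilpda, also known to respond to hypoxia, was at 2.62 to 4.96 FPKM in WT and 17.1 to 35.3 FPKM in Ctrl (adjusted p = 0.00599). In all 3 of 27 listed genes rose (Hk2, Slc16a3 and Ankrd37) and 2 fell (Bnip3 and Pfkm). These were 11.11% and 7.407%, beside 7.01% and 3.04% of all tested genes. Rises numbered 1 without Ctrl 2 or Ctrl 3, 5 without Arid1a_Het 2 or Arid1a_Het 3, and 6 with the block; falls numbered 1 without Arid1a_Het 1 or any 1 of the WT and Ctrl libraries. Retinoid genes were also mixed, with 4 of 18 rising (22.22%) and 1 falling (5.556%). Rdh10, which makes retinaldehyde, was at 8.83 to 11.5 FPKM in WT and 46.9 to 103 FPKM in Ctrl, and the receptor Rarb, itself induced by retinoic acid, was at 0.0852 to 0.250 and 2.07 to 4.73 FPKM (adjusted p = 0.00719 and 0.00676). Falls in that list numbered 2 without Ctrl 1, 3 without Arid1a_Het 3, 4 with the block and 5 after median-ratio scaling.

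Mucosal defence showed the highest share of rises, with 20 of 30 tested antimicrobial genes called and none lower, a median 2.72 above that of all genes. This share stands beside 7.01% of all tested genes, and no left-out library moved the count by more than 1.5 times. The filter counts the transgenic libraries, so here, as in other lists, a gene near 0 in WT could pass through them alone. Of 48 list members with values 30 were tested, and with no filter 18 rose. Several of these genes are also leukocyte products. Of 14 leukocyte markers 4 rose, and their sums overlapped between the groups while their mean levels did not, as given above. The part of leukocytes in these changes was not tested. Pigr, the receptor that carries IgA across epithelium, was at 46.0, 35.9 and 46.9 FPKM in WT, 878, 952 and 875 FPKM in Ctrl, and 318, 198 and 607 FPKM in Arid1a_Het (log2 fold change 4.37, SE 0.34, adjusted p = 0.000303). Bpifb1, a secreted lipid-binding protein, was at 43.5, 166 and 74.8 FPKM in WT and 1014, 2710 and 1096 FPKM in Ctrl. Pglyrp1, which binds bacterial peptidoglycan, was at 13.4 to 20.8 FPKM in WT and 63.2 to 88.7 FPKM in Ctrl. The protease inhibitor Wfdc18 was at 0.498 to 2.05 FPKM in WT and 14.8 to 15.4 FPKM in Ctrl.

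Enzymes that make reactive oxygen at the epithelial surface, and partner proteins, were picked out after their values were seen, Cyba from outside the list. Nox1, the catalytic subunit of the colonic NADPH oxidase, on chromosome X at 134086421 to 134221956, was at 0, 0.0459 and 0.0130 FPKM in WT, 3.25, 3.48 and 2.43 FPKM in Ctrl, and 0.0528, 0.299 and 0.759 FPKM in Arid1a_Het. Every Arid1a_Het library lay below every Ctrl library. All were also above every WT library, but Arid1a_Het 1 and WT 2 were nearly level and close to 0. Its activator Noxa1 was at 9.37 to 16.2 FPKM in WT and 42.4 to 60.8 FPKM in Ctrl, and the membrane partner Cyba at 36.6 to 45.8 and 112 to 145 FPKM. The adjusted p of Nox1, Noxa1 and Cyba were 0.00172, 0.00203 and 0.00523. Duox2, which makes hydrogen peroxide, was at 3.15, 6.58 and 2.66 FPKM in WT and 25.9, 24.7 and 74.7 FPKM in Ctrl (adjusted p = 0.00719). Its maturation factor Duoxa2 was at 3.41 to 19.9 and 52.6 to 117 FPKM (adjusted p = 0.0121, and 0.0611 without Ctrl 3).

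Metaplasia and ductal markers rose in 14 of 28 tested genes (50%, beside 7.01% of all tested genes) with none lower. The median was 1.41 above that of all genes. Clu, a secreted chaperone of injured epithelium, was among the most abundant, at 588, 634 and 662 FPKM in WT and 3455, 3536 and 5639 FPKM in Ctrl. Cftr, the chloride channel of ducts, was at 0.876 to 4.15 FPKM in WT and 35.9 to 60.1 FPKM in Ctrl. The log2 fold changes of Clu and Cftr were 2.71 (SE 0.38) and 3.91 (SE 0.58), with adjusted p of 0.00498 and 0.00595. The list count was 7 without Ctrl 3, 8 without WT 2 and 9 without Ctrl 1 or Ctrl 2. Mucin genes were split, with 4 rises (14.81%) and 2 falls (7.407%, beside 3.04% of all tested genes) among 27. St3gal4, a sialyltransferase, was at 1.97 to 7.02 FPKM in WT and 38.9 to 44.9 FPKM in Ctrl (3.19, SE 0.40, adjusted p = 0.0032). The mucin rises numbered 1 without Ctrl 3 or WT 3, 2 without Ctrl 1, Ctrl 2 or WT 1, with no filter or after median-ratio scaling, and 7 with the block. The falls numbered 0 with no filter or without Ctrl 1, Ctrl 2, Ctrl 3 or WT 2, and 1 without WT 1, WT 3 or Arid1a_Het 1. Of 30 regulators of gut and stomach identity 5 rose (16.67%), with Onecut2 alone holding in all alternatives that tested it, and Foxa2 fell (3.333%). Those counts were 1 and 0 without Ctrl 2, 2 and 0 without Ctrl 1, WT 2 or WT 3, and 3 and 0 without Ctrl 3, and 10 rose with the block. Foxa2 was also not called without WT 1.

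**Figure D4:**
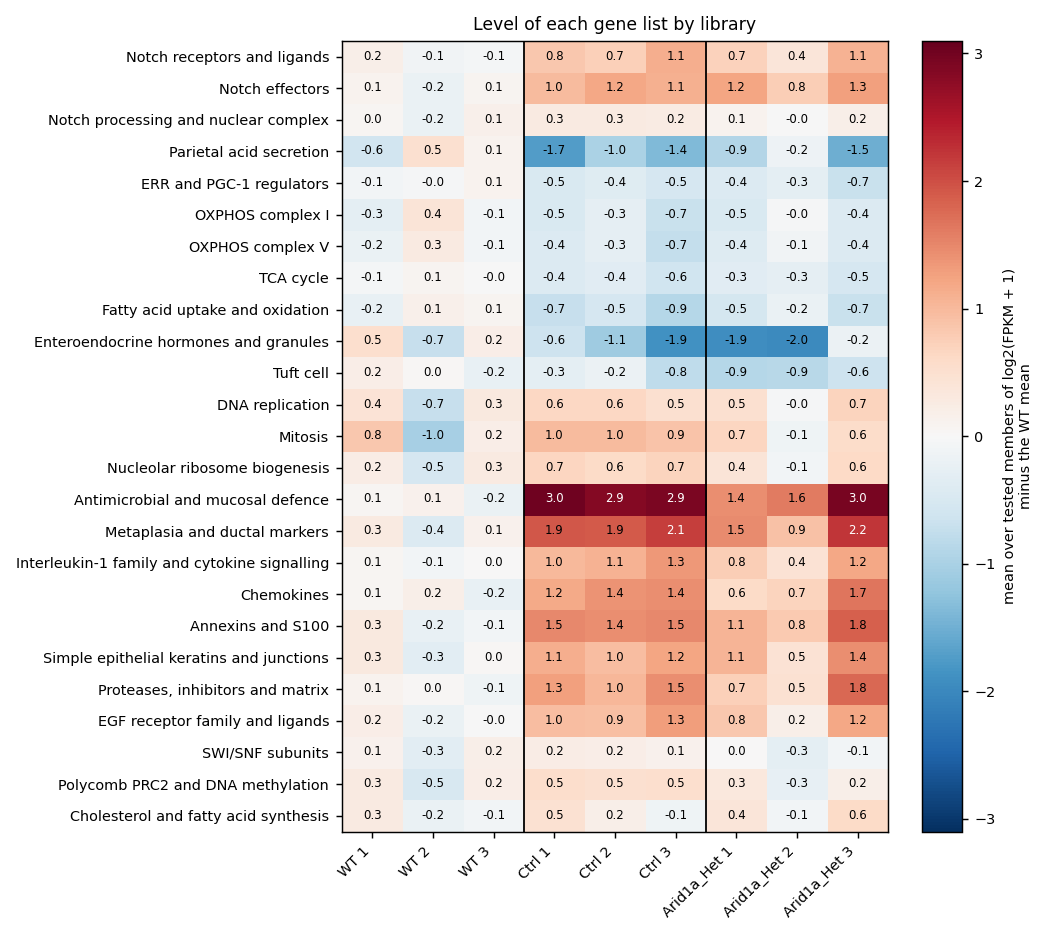
Each cell is the mean, over the tested members of a list (rows), of log2(FPKM + 1) in 1 library (columns) minus the mean of the WT libraries, with red above and blue below WT. The antimicrobial list is at 3.0, 2.9 and 2.9 in Ctrl 1 to 3, and mitosis is at 0.8 in WT 1 and -1.0 in WT 2.

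Cytokine genes rose in 18 of 38 tested members (47.37%) and chemokines in 7 of 12 (58.33%), beside 7.01% of all tested genes, with no falls. Il1b, the pro-inflammatory interleukin made by macrophages and neutrophils, was at 0.293, 0.458 and 0.0451 FPKM in WT, 17.6, 41.3 and 28.5 FPKM in Ctrl, and 3.37, 2.69 and 30.6 FPKM in Arid1a_Het (log2 fold change 4.51, SE 0.71, adjusted p = 0.00747). The epithelial and stromal receptor Osmr, which answers oncostatin M, was at 0.0924 to 0.150 FPKM in WT and 4.001 to 8.12 FPKM in Ctrl (2.49, SE 0.26, adjusted p = 0.00165). The neutrophil receptor Csf3r was at 0.0477 to 0.295 FPKM in WT and 3.27 to 6.11 FPKM in Ctrl, and the part of such cells in these changes was not tested. Casp4 and Aim2, which sense bacterial lipid and DNA, were at 0.104 to 0.205 and 0.0651 to 2.64 FPKM in WT and at 1.37 to 2.69 and 10.1 to 14.2 FPKM in Ctrl (adjusted p = 0.00719 and 0.0113). In the cytokine list 4 genes passed when Ctrl 3 was dropped, 7 when Ctrl 2 or WT 2 was, 8 when WT 3 was, and 9 when Ctrl 1 was or at a minimum of 5 FPKM, against 10 with no filter. Csf3r was not called without Ctrl 2 (0.0532), Ctrl 3 (0.0700) or WT 3 (0.051).

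The 3 chemokines with the shared upstream letters were close to 0 in WT. Cxcl1 was at 0.0689, 0.203 and 0 FPKM in WT and 2.35, 2.93 and 2.09 FPKM in Ctrl (adjusted p = 0.0122). Cxcl2 was at 0.0833, 0.0184 and 0 FPKM in WT and 3.07, 7.998 and 5.40 FPKM in Ctrl (adjusted p = 0.0121, and 0.0572 without Ctrl 3). Cxcl3 was at 0, 0.0217 and 0 FPKM in WT and 0.958, 2.403 and 2.57 FPKM in Ctrl (adjusted p = 0.0375). All 3 were lower in Arid1a_Het 1 and 2, at 0.264 to 0.726 FPKM, than in any Ctrl library, while Arid1a_Het 3 was within or near the Ctrl range. Cxcl3 was not called with no filter (0.0714), after quantile normalization (0.0802) or without Ctrl 2 (0.103), Ctrl 3 (0.138), WT 1 (0.0667), WT 2 (0.103) or WT 3 (0.0858). Cxcl16, made by epithelium as a membrane-bound ligand, was at 4.65 to 8.54 FPKM in WT and 15.2 to 35.2 FPKM in Ctrl (adjusted p = 0.0145). The chemokine count was 3 without Ctrl 3 and 4 without Ctrl 2, WT 2 or WT 3 or at a minimum of 5 FPKM. The chemokine receptor Cxcr4, whose ligand is Cxcl12, was at 2.14, 1.24 and 1.33 FPKM in WT and 12.4, 14.4 and 15.6 FPKM in Ctrl (2.57, SE 0.19, adjusted p = 0.000208).

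A pair of brakes on inflammation also rose. Zc3h12a, the RNase regnase-1, which destroys cytokine mRNAs, was at 6.62, 5.80 and 5.75 FPKM in WT and 24.0, 23.8 and 21.4 FPKM in Ctrl (log2 fold change 1.77, SE 0.23, adjusted p = 0.00336). Tnip3, which restrains NF-kB, was at 0.0162 to 0.0928 FPKM in WT and 2.16 to 3.48 FPKM in Ctrl (1.80, SE 0.26, adjusted p = 0.00528). Il4ra, the receptor subunit of type 2 cytokines, was at 5.22 to 6.42 FPKM in WT and 22.4 to 34.0 FPKM in Ctrl (adjusted p = 0.00789). Among mast cell markers the granule protease Mcpt4 was at 1.17, 0.998 and 0.435 FPKM in WT and 42.3, 42.2 and 84.1 FPKM in Ctrl (4.88, SE 0.30, adjusted p = 7.32e-05), although reads may be shared with its close relatives. The mast cell receptor Kit fell, from 3.60 to 8.67 FPKM in WT to 1.44 to 2.62 FPKM in Ctrl, and Cpa3, Tpsb2 and Cma1 were not called, with overlapping groups. Kit was not called without Ctrl 1, Ctrl 2, Ctrl 3, WT 2 or WT 3, where the count of mast cell falls was 0.

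Of 32 keratin and junction genes 11 rose (34.38%, beside 7.01% of all tested genes) and 21 were not called. Cldn4, a tight-junction protein, was at 1.92, 0.523 and 1.26 FPKM in WT and 31.9, 31.3 and 37.1 FPKM in Ctrl (log2 fold change 3.99, SE 0.59, adjusted p = 0.00563). Its relative Cldn7 was at 8.78, 3.37 and 4.11 FPKM in WT and 70.7, 56.3 and 81.5 FPKM in Ctrl (3.53, SE 0.51, adjusted p = 0.00528). The count of rises was 2 without Ctrl 3, 6 without Ctrl 1, Ctrl 2 or WT 2 and 7 without WT 3 or with no filter. The Ly6 family split, with Ly6a, Ly6d, Ly6e and Plaur rising (33.33%) and Psca falling (8.333%, beside 3.04% of all tested genes) among 12. Ly6d was at 99.9, 89.1 and 97.4 FPKM in WT and 644, 904 and 1006 FPKM in Ctrl (3.12, SE 0.25, adjusted p = 0.000361). Psca, prostate stem cell antigen, abundant in gastric pit cells, was at 5901, 9272 and 7291 FPKM in WT, 1955, 2451 and 2473 FPKM in Ctrl, and 4956, 6843 and 3982 FPKM in Arid1a_Het (-1.69, SE 0.28, adjusted p = 0.00998). Every Arid1a_Het library exceeded every Ctrl library for Psca. Its call was lost with no filter (adjusted p = 0.166) and after quantile normalization (0.0742), where the count of Ly6 falls was 0, and 2 fell without WT 1 or with the block.

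Calcium-binding annexins and S100 proteins rose in 11 of 23 tested genes and growth factors and receptors of the EGF family in 7 of 21. Proteases, inhibitors and matrix genes rose in 15 of 39, and none of these lists had falls. The shares were 47.83%, 33.33% and 38.46%, beside 7.01% of all tested genes. S100a6 was at 718, 478 and 630 FPKM in WT and 1624, 1809 and 2009 FPKM in Ctrl (log2 fold change 1.59, SE 0.22, adjusted p = 0.00492). Areg, amphiregulin, a ligand of the EGF receptor, was at 24.7, 24.3 and 15.4 FPKM in WT and 153, 194 and 372 FPKM in Ctrl (3.34, SE 0.42, adjusted p = 0.0032). Hbegf, another ligand, was at 7.96 to 8.78 FPKM in WT and 27.8 to 46.2 FPKM in Ctrl (adjusted p = 0.00748). Plat and Plaur, the tissue plasminogen activator and the urokinase receptor, were at 0.510 to 2.94 and 4.36 to 6.37 FPKM in WT and at 42.5 to 94.2 and 47.2 to 125 FPKM in Ctrl (adjusted p = 0.00162 and 0.00361). Lama3 and Lama5, laminin chains of the epithelial basement membrane, were at 0.994 to 1.59 and 1.34 to 1.70 FPKM in WT and 10.6 to 19.3 and 12.5 to 38.9 FPKM in Ctrl (adjusted p = 0.00601 and 0.00724). In Arid1a_Het, Lama5 was at 8.44, 2.20 and 6.95 FPKM, below every Ctrl library. The list counts were 3, 2 and 4 without Ctrl 3, 6, 4 and 6 without Ctrl 1, 6, 4 and 7 without Ctrl 2, 7, 3 and 5 without WT 2 and 5, 3 and 5 without WT 3. The EGF count was 11 without Arid1a_Het 2 or Arid1a_Het 3 and 14 with the block, and the matrix count 23 with the block and 7 with no filter.

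Chromatin and biosynthesis genes gave few calls, near or below the shares over all tested genes of 7.01% for rises and 3.04% for falls. The counts were not tested against these shares. Of 22 SWI/SNF subunits, the chromatin remodeller that contains Arid1a, Smarcd3 fell (4.5%) and none rose. Smarcd3 was at 3.57, 12.0 and 8.75 FPKM in WT and 1.16, 1.75 and 0.947 FPKM in Ctrl (log2 fold change -1.88, SE 0.43, adjusted p = 0.0274), and its call was lost with no filter (0.0641) and without Ctrl 1, Ctrl 2, Ctrl 3, WT 2 or WT 3 (0.0594 to 0.108). None of 16 genes of Polycomb PRC2 and DNA methylation passed in limma or voom (6 were higher at an unadjusted p under 0.05). In limma 1 of 30 of cholesterol and fatty acid synthesis rose (3.3%) and 1 of 40 of endoplasmic reticulum folding (2.5%), at adjusted p under 0.05. The last of these counts was 11 with the block, and the Polycomb count 4. Both single rises were lost without any 1 of the WT and Ctrl libraries. The stress chaperones Hspa1a and Hspa1b, near-identical copies whose reads may be split, were at 0.256 to 1.44 and 1.61 to 6.498 FPKM in WT and at 9.74 to 16.6 and 30.5 to 66.6 FPKM in Ctrl (adjusted p = 0.00278 and 0.00647). With Dnajb1 they made 3 rises among 18 heat shock genes (16.67%), and 12 with the block.

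Genes that rose lay next to each other in places. Among 7 runs of at least 4 neighbouring tested genes that all rose, and none that all fell, 3 lay on chromosome 3 in the region of S100 and cornified envelope genes. They were S100a14, S100a16, S100a3 and S100a2 (90526856 to 90602702), S100a5, S100a6, S100a8 and S100a9 (90608523 to 90695721), and Sprr2f, Sprr2g, Sprr1a, Ivl and S100a11 (92365187 to 93526287). Sprr2f, a small proline-rich envelope protein, was at 0.919, 5.86 and 0.353 FPKM in WT and 33.5, 67.2 and 104 FPKM in Ctrl (log2 fold change 4.59, SE 0.74, adjusted p = 0.00846). A run on chromosome 1 (40324610 to 40551705) held the interleukin-1 family receptors Il1rl2, Il1rl1, Il18r1 and Il18rap. Il18rap, the accessory chain of the interleukin-18 receptor, was at 0.0255 to 0.0702 FPKM in WT and 1.91 to 3.37 FPKM in Ctrl. All 4 of these receptors lost their calls without Ctrl 2, Ctrl 3, WT 2 or WT 3, with adjusted p of 0.0554 to 0.150. A run on chromosome 11 (83065112 to 83294632) held Slfn2, Slfn1 and Slfn4 of the Schlafen family and AA465934. Genes in these runs are relatives whose reads may be shared, and the runs were found after the data were seen. None of the 3 chromosome 3 runs listed here and the Schlafen run was whole in every fit. Without Ctrl 3 the calls of S100a14, S100a16, S100a3, S100a2, S100a8, S100a9, Sprr2g, Sprr1a, Ivl and S100a11 were lost (adjusted p = 0.0577 to 0.111), so no run of these 3 was whole. Without Ctrl 2, WT 2 or WT 3 at least 1 gene of each of these 3 runs was lost (0.0516 to 0.0933), and without Ctrl 1 S100a2, S100a8 and S100a11 were (0.0516 to 0.0663), while without WT 1 Sprr2g was (0.0573). The Schlafen run was not whole without any 1 of the WT and Ctrl libraries (0.0537 to 0.123).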

How the data were processed

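Polyadenylated RNA of 9 gland preparations was sequenced from stranded libraries, per the labels' protocols. Reads were aligned with STAR 2.4.2a to GRCm38 (mm10), per the submitters' processing notes; the counting step is not given in the sources used here. The authors deposited FPKM values in 1 table for all libraries. Whole reads were recovered from the FPKM steps: for 18423 of 18423 genes each value was within 0.002 of a whole read in all libraries. These gave 22651582 to 29478481 reads per library and were used for depth and for limma voom. Groups were compared with limma 3.58.1 (R 4.3.3) on log2(FPKM + 1), with a filter of at least 1 FPKM in 3 of 9 libraries, 1 fit of 3 group means, the contrast of Ctrl and WT, a trend in the variance and Benjamini-Hochberg adjustment over 11209 genes at 0.05. Descriptions used Python with pandas and matplotlib, and positions came from GENCODE M21.

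The naming rule was, in each direction, the 25 called genes with the largest change and groups that do not overlap, and the 6 lowest p of each list. The text did not follow it in full: it describes a part of these genes, and others chosen after their values were seen, mainly because they held under every alternative. Members and the 48 gene lists were chosen with earlier results of these data known. Same-numbered WT and Ctrl libraries deviated together from their group means (r across genes 0.207, 0.336 and 0.138), so the numbers were taken to pair them. The labels do not say why. The pairing was thus read from the same values that the blocked fit tests, and its larger counts are no separate support. The block also tied in the Arid1a_Het libraries by number, for which no such correlation was computed. Alternatives were another pseudocount (0.1), no filter, a minimum of 5 FPKM, 3 other scalings, only the 2 groups, the replicate block, each library left out, Ctrl 1 and Arid1a_Het 3 left out, and voom. The voom alternative and the NF-kB motif were chosen after the data were seen. The model was checked on simulated data. Results of a few genes are not reported here.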

Additional observations from a re-analysis of the deposited data

How the results depend on the processing

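The 786 rises and 341 falls kept to within 1.5 times under the pseudocount of 0.1, no filter, totals without the 50 highest genes, the 2 groups alone and voom (625 and 262). At a minimum of 5 FPKM 497 genes rose. Falls numbered 587 after median-ratio scaling, 703 after quantile normalization and 166 without Ctrl 1 and Arid1a_Het 3. The replicate block, which pairs same-numbered libraries, called 1804 rises and 669 falls. All 1127 genes called without it were among them, and no gene named as called lost its call with it. Where it moved the count of a list by over 1.5 times the blocked count stands beside it, except for counts of 0 or 1 that became 1 higher. Smaller moves are not given, such as parietal falls from 9 to 13 and metaplasia rises from 14 to 21. Jag2, Sdhb and Atp5a1, not called in the main fit, passed with the block. Leaving out 1 library at a time gave 217 to 1060 rises and 43 to 405 falls. Fits without a library of the pair test 2 against 3, with 1 sample fewer. Values of genes at low level rest on few reads. No named gene changed direction under any of 19 alternatives.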
